A study of Homo sapiens with 20 samples.

Results

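TGM2 and CD38 are direct targets of retinoic acid signalling in myeloid cells, and their RNA was followed across both genotypes and both treatments of the series, together with the accessible regions assigned to them. The rule took the 2 genes by name out of 28051 named genes in the RNAseq data, and took every ATACseq region whose deposited annotation lists either gene. That gave 3 of 8286 regions for TGM2 and 0 for CD38. The deposited regions all differ at least 1.65-fold between genotypes in ATRA, so 0 does not mean that CD38 lacks accessible chromatin. HL60 is an established human AML (acute myeloid leukaemia) cell line that matures towards neutrophils under ATRA (all-trans retinoic acid, the active acid form of vitamin A). Cells labelled HK3-null, after the hexokinase gene targeted with Cas9, and Cas9 expressing control cells were each kept for 36 h in 1 µM ATRA or in DMSO at 0.01%, the solvent alone. RNAseq gave 3 replicates in each of 4 groups and ATACseq, which measures how open chromatin is to a transposase, gave 2. Both genotypes carry Cas9 from a lentiviral vector, and the lines were grown from single cells, so each genotype may rest on very few clones. All libraries of the HK3-null group share 1 knockout label and nothing states that replicates came from separate clones, so the p values given here measure the spread between these cultures.

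The RNA of HK3 itself did not mark the knockout. In DMSO it stood at 90, 65 and 105 normalized counts in Cas9 cells against 344, 302 and 346 in cells labelled HK3-null, and in ATRA at 1305, 1298 and 1850 against 1384, 1285 and 1975. RNA level does not show whether a frameshift is present. The authors report that their knockout lines were checked by sequencing the cut site and by mass spectrometry. Neither measure is part of these data, so the genotype is used throughout as a label. Normalized counts, the authors' scaled counts, summed to between 29053838 and 31548189 per RNAseq library, from an estimated 22700000 to 37000000 counts before scaling. The 8 promyelocytic markers summed to between 555983 and 837442 normalized counts in every library, while the endothelial list reached at most 24, the erythroid list 10, the T and NK cell list 27 and the B and plasma cell list 110, with MS4A1 at 0. Replicate 1 of Cas9 DMSO stood apart: its stromal markers summed to 426 normalized counts against at most 53 in any other library, and it held the most detected genes (16750). TGM2 values that rest on the Cas9 DMSO group are therefore given with and without it.

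Retinoic acid binds the receptors RARA, RARB and RARG, which pair with an RXR partner on DNA at short repeated half-sites, release corepressors and recruit coactivators. TGM2 encodes tissue transglutaminase, an enzyme that crosslinks proteins through glutamine and lysine side chains and that also binds GTP and, outside the cell, fibronectin and integrins. CD38 encodes a cell surface enzyme that consumes NAD and makes cyclic ADP-ribose and related calcium-mobilizing messengers, with PECAM1 (CD31) as a ligand. Both genes are textbook early responders to ATRA in HL60 and related leukaemia cells.

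TGM2 lies on chromosome 20 of GRCh38 from 38127385 to 38168475 on the minus strand, and its reference transcript has 13 exons and 4970 bases. CD38 lies on chromosome 4 from 15778328 to 15853232 on the plus strand, and its reference transcript has 8 exons and 5620 bases. The 3 accessible regions of TGM2 lie at its start, in intron 6 and in intron 10. Stretches of the intron regions, which opened in HK3-null ATRA, and the bases in front of CD38 are printed because the RNA and accessibility values below are read against them. Each sequence runs 5′ to 3′ on the strand of its gene, from hg38, and capitals mark a retinoic acid receptor half-site, searched as the letters AGGTCA, as the form AGTTCA, as the form GGGTCA or as the form GGTTCA, on both strands and with overlaps allowed. The first 2 stretches are the central 300 bases of the intron regions, and the last is the 250 bases in front of the CD38 start.
TGM2 intron 6 region, chr20:38142954-38143253: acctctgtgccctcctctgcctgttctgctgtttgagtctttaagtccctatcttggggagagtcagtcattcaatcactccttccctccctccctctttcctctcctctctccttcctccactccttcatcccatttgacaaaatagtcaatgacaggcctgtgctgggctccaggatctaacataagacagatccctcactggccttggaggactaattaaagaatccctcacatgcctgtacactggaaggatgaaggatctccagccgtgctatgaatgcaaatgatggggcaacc
TGM2 intron 10 region, chr20:38132593-38132892: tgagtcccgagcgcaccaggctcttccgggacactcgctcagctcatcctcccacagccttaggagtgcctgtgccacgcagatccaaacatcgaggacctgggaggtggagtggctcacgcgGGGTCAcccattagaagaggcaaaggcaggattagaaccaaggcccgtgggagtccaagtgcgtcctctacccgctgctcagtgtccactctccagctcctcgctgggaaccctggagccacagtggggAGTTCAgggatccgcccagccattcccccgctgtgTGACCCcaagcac
CD38 upstream, chr4:15778078-15778327: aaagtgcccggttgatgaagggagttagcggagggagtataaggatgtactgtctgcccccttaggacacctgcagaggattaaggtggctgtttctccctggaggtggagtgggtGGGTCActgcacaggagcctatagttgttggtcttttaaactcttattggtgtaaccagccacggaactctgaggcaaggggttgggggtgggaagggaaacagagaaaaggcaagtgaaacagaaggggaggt

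The intron 6 stretch (50% G and C) held 0 and the intron 10 stretch (62.7%) held 3. Of the central 300 bases of all 8286 deposited regions, 45.2% held at least 1 half-site and 2.69% held 3 or more. Across the whole intron 6 region 2 half-sites were found, both outside the printed centre. The CD38 stretch held 1 half-site (52.4% G and C). Of the 250-base stretches in front of 35116 RefSeq starts, 33.8% held at least 1. Direct repeats of these half-sites with a spacer of 1, 2 or 5 bases, the arrangements that RAR and RXR pairs are known to bind, were searched within 2 kb on either side of the reference start of CD38 and across the whole intron regions of TGM2. None of these windows held one of these letter strings. They are rare in regions of this kind: of the central 300 bases of the 8286 deposited regions 0.121% held the repeat with spacer 1, 0.290% that with spacer 2 and 0.229% that with spacer 5. Among 19061 reference starts with 2 kb on either side the shares were 1.99%, 11.8% and 1.02%. These are matches of letters and not measured binding sites.

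TGM2 RNA was near 0 in DMSO, rose with ATRA in both genotypes, and was highest in HK3-null cells under ATRA. In Cas9 DMSO it stood at 10, 1 and 2 normalized counts, and in HK3-null DMSO at 4, 4 and 12. In Cas9 ATRA the libraries held 801, 946 and 1393, and in HK3-null ATRA 32339, 30084 and 39244. The group means were 4.33 ± 4.93, 6.67 ± 4.62, 1047 ± 309 and 33889 ± 4773 (SD, n = 3 each). The DMSO groups overlapped, every ATRA library lay above every DMSO library, and the lowest HK3-null ATRA library was 21.6 times the highest Cas9 ATRA library. These are bulk libraries, in which more cells with a transcript and more of it per cell cannot be told apart.

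On the log2(normalized count + 1) scale, TGM2 rose by 7.98 with ATRA in Cas9 cells (SE 0.53, limma adjusted p = 1.48e-07), the 9th largest rise of 13256 genes tested, where 10.4% of genes were called in either direction (adjusted p under 0.05 and at least 2-fold). In HK3-null cells it rose by 12.26 (adjusted p = 2.07e-09), the largest rise of any tested gene, where 15.3% were called. The difference between these rises was 4.28 (SE 0.75, adjusted p = 0.00319 for the interaction of genotype and treatment, which 9.97% of genes passed). Without Cas9 DMSO replicate 1, the library with stromal transcripts that also held 10 of the 13 TGM2 counts of its group, the rise in Cas9 cells was 8.70 (adjusted p = 9.60e-09) and the difference between the rises 3.56 (SE 0.51, adjusted p = 0.00140). Because the DMSO values are a handful of counts, the rises are also given as ratios of summed counts with exact 95% counting intervals (Clopper-Pearson): 242 in Cas9 cells (141 to 454) and 5083 in HK3-null cells (3291 to 8322). These intervals cover counting error only. Without that replicate the ratio of means in Cas9 cells was 698. TGM2 passed the filter on low values through its ATRA groups alone.

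Between genotypes, TGM2 did not pass in DMSO and stood far apart in ATRA. The DMSO difference was 0.77 on the same log2 scale (adjusted p = 0.237, 95% confidence interval -0.38 to 1.92), where 20.3% of genes were called. Without Cas9 DMSO replicate 1 it was 1.49 (adjusted p = 0.00601), a call that then rests on 2 libraries holding 1 and 2 counts. The ratio of summed counts in DMSO was 1.54 (0.728 to 3.37), and the ratio of means without that replicate was 4.44. In ATRA the HK3-null level was higher by 5.05 (adjusted p = 3.56e-06, 33.0-fold), the 123rd largest of the genes tested, where 23% of genes were called.

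CD38 RNA took another course: it was already raised in HK3-null cells without ATRA, and after ATRA the genotypes stood close together. Cas9 DMSO libraries held 5, 6 and 4 normalized counts and HK3-null DMSO libraries 197, 202 and 175. With ATRA, Cas9 libraries held 6157, 5181 and 5190 and HK3-null libraries 7982, 6844 and 6708. The means were 5 ± 1, 191 ± 14.4, 5509 ± 561 and 7178 ± 700 (SD, n = 3 each). The 4 groups did not overlap, although the lowest HK3-null ATRA library exceeded the highest Cas9 ATRA library by a factor of only 1.09.

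CD38 rose by 9.85 with ATRA in Cas9 cells (log2 scale, SE 0.13, limma adjusted p = 6.14e-14), the 2nd largest rise of the genes tested, and by 5.22 in HK3-null cells (adjusted p = 1.67e-11), the 42nd largest. The ratios of summed counts were 1102 (668 to 1969) and 37.5 (34.5 to 40.8). The ATRA change was thus smaller in HK3-null cells by 4.63 (log2 difference -4.63, SE 0.18, adjusted p = 4.00e-08), the 5th most negative interaction of all genes tested. In DMSO, CD38 was higher in HK3-null cells by 5.01 (adjusted p = 2.03e-11, 32.3-fold, the 119th largest), a ratio of summed counts of 38.3 (23.0 to 68.8). In ATRA the genotype difference was 0.38 (adjusted p = 0.0214, 95% confidence interval 0.10 to 0.66, 1.3-fold), below the 2-fold needed for a call. That small difference did not pass when Cas9 ATRA replicate 2 (adjusted p = 0.0776), Cas9 ATRA replicate 3 (0.0684) or HK3-null ATRA replicate 1 (0.0954) was left out, nor after quantile normalization (0.300).

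**Figure D1:**
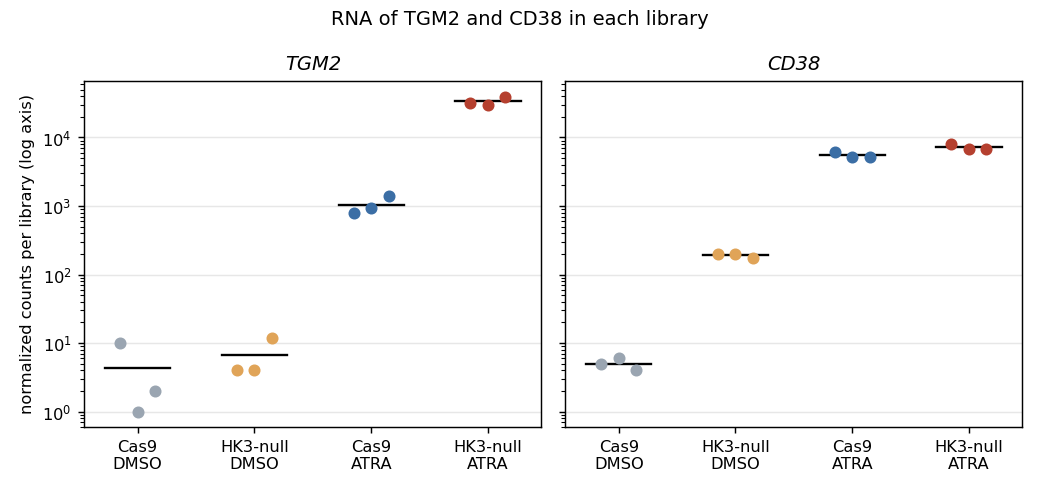
Normalized counts of TGM2 (left) and CD38 (right) in each RNAseq library on a log axis, with 3 points per group and a black line at the group mean. TGM2 is at 12 or below in all DMSO libraries and at 30084 or above in HK3-null ATRA, while CD38 is at 175 or above in HK3-null DMSO and at most 6 in Cas9 DMSO.

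The interactions of the 2 genes had opposite signs. TGM2 gained its genotype difference under ATRA, where CD38 lost most of the one it had in DMSO. Per kilobase of reference transcript, the scale on which levels of different genes may be compared, both genes were close to 0 in Cas9 DMSO (0.872 ± 0.993 normalized counts per kb for TGM2 and 0.890 ± 0.178 for CD38, SD, n = 3). Without replicate 1 of that group the TGM2 level was 0.302 per kb and the CD38 level 2.95 times it, from 1 and 2 counts of TGM2. In HK3-null DMSO the CD38 level per kb was 25.4 times that of TGM2, and in Cas9 ATRA 4.65 times. In HK3-null ATRA the order turned and the TGM2 level per kb was 5.34 times that of CD38 (6819 ± 960 against 1277 ± 124, SD, n = 3).

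**Figure D2:**
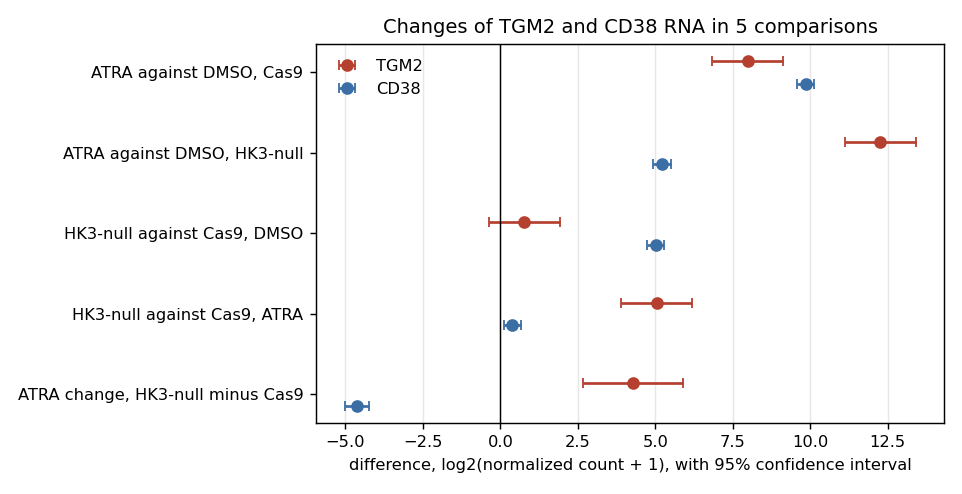
Differences in log2(normalized count + 1) of TGM2 (red) and CD38 (blue) in 5 comparisons, with bars for 95% confidence intervals from the limma fit of 12 libraries. The bottom comparison, the ATRA change in HK3-null minus that in Cas9 cells, is at 4.28 for TGM2 and at -4.63 for CD38.

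Genes whose levels over the 12 libraries were most like those of TGM2 were BRI3 (Pearson r 0.994), TTLL4 (0.994), POR (0.993), HNRNPLL (0.992) and SLA (0.991), out of 11242 genes ranked. POR encodes the reductase that passes electrons to cytochrome P450 enzymes, and SLA a Src-like adaptor of haematopoietic cells. The mean level of SLA was 688, 917, 5218 and 17424 normalized counts in Cas9 DMSO, HK3-null DMSO, Cas9 ATRA and HK3-null ATRA, and that of POR was 1150, 1091, 4627 and 11816, so both followed the order of TGM2 in ATRA over a far smaller range. For CD38 the most like gene was FGR (r 0.995), a Src family kinase of myeloid cells, at 43.3, 1178, 11970 and 23933. It was followed by TNFRSF14 (0.990), a receptor of the TNF family, and by NCF1B (0.989), NCF1C (0.989) and NCF1 (0.988). NCF1 encodes a subunit of the phagocyte NADPH oxidase, and NCF1B and NCF1C are its near-identical copies, so the share of reads given to each of the 3 is uncertain. TGM2 and CD38 correlated with each other at r 0.876, and CD38 ranked 707th in likeness to TGM2. All these values describe 12 libraries that fall into 4 groups and share their depth and scaling.

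Accessibility at the start of TGM2 was higher in HK3-null ATRA than in every other group. The start region (chr20:38165185-38165617) covers exon 1 and the start of the reference transcript. Its deposited signal, the density of fragments after all libraries had been reduced to the same number, was 13.7 and 24.8 in Cas9 DMSO, 37.0 and 31.6 in HK3-null DMSO, 42.6 and 24.1 in Cas9 ATRA, and 103 and 93.2 in HK3-null ATRA. Cas9 ATRA overlapped both DMSO groups, and HK3-null DMSO lay above Cas9 DMSO.

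With ATRA the start region rose by 1.49 in HK3-null cells on the log2(signal + 1) scale (SE 0.34, limma adjusted p = 0.00183), where 16.8% of 6214 tested regions were called (adjusted p under 0.05 and at least 1.5-fold) and 5.04% were called higher. In Cas9 cells the difference was 0.76 (adjusted p = 0.128, 95% confidence interval 0.07 to 1.46 before adjustment), where 18.2% were called and 2.54% were called higher. The difference between these 2 changes was not tested. The median over all tested regions was -0.17 in HK3-null and -0.30 in Cas9 cells. In DMSO the start region was higher in HK3-null cells by 0.85 (adjusted p = 0.0217), against 42.7% of regions called higher and 86.6% called in either direction, so a higher call is common in this set. It did not pass without Cas9 DMSO replicate 1 (0.45, adjusted p = 0.334) or without HK3-null DMSO replicate 1 (0.74, adjusted p = 0.129). All 8286 deposited regions differ at least 1.65-fold between genotypes in ATRA and were thus selected on that contrast, so the 1.58 of the start region there is given with no test, and the ATRA changes share the ATRA libraries with that selection.

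The intron regions were close to 0 in 3 groups and open in HK3-null ATRA. The intron 6 region (chr20:38142851-38143356) is centred 22.2 kb downstream of the start. It read 1.36 and 3.53 in Cas9 DMSO, 3.73 and 1.64 in HK3-null DMSO, 4 and 3.47 in Cas9 ATRA, and 33.4 and 21.5 in HK3-null ATRA. The intron 10 region (chr20:38132517-38132967) is centred 32.5 kb downstream of the start, ends 17 bases from exon 11 and overlaps no exon of the reference transcript. It read 2.79 and 0 in Cas9 DMSO, 0 and 1.63 in HK3-null DMSO, 1.80 and 2.30 in Cas9 ATRA, and 45.9 and 40.2 in HK3-null ATRA. In both regions the HK3-null ATRA libraries lay above all 6 others. Selection of the deposited regions on the genotype difference in ATRA favours such a separation from Cas9 ATRA. The share of all regions with this pattern was not counted.

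Both intron regions had a mean below the signal needed for the test (17.1, the 25th percentile), so their values come from a fit over all 8286 regions. The deposited regions were selected on the genotype difference in ATRA, and these intron regions were open in HK3-null ATRA alone. The ATRA difference in HK3-null cells rests on the same libraries and is given with no test, 2.98 for intron 6 and 4.76 for intron 10. In Cas9 cells it was 0.53 (adjusted p = 0.658) and 0.64 (0.674), and between genotypes in DMSO 0.11 (0.869) and -0.26 (0.752), with signals so low that the sign of either comparison can turn when 1 library is left out. Thus in DMSO, where the libraries had no part in the selection of regions, neither intron region differed detectably between genotypes. The depth behind these signals is unknown.

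**Figure D3:**
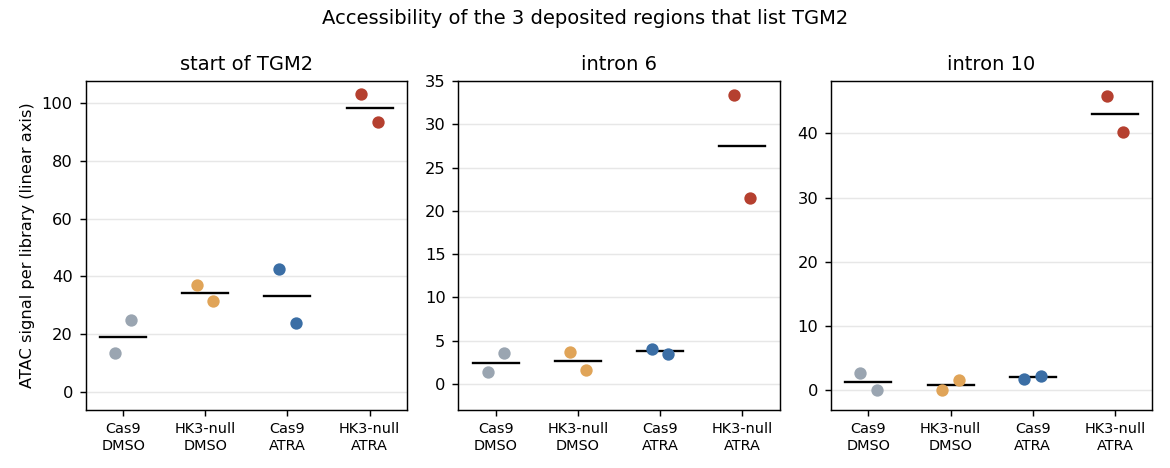
ATACseq signal per library on linear axes for the TGM2 regions at the start, in intron 6 and in intron 10, with 2 points per group and a black line at their mean. HK3-null ATRA libraries are at 93.2 and 103 at the start and at 40.2 and 45.9 in intron 10, where no other library exceeds 2.79.

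Around TGM2 within 250 kb, RNA of 4 neighbours was tested, and none had a positive interaction that passed. Of all tested genes 4.79% had one, so none among so few is near that share. BPI, an antibacterial granule protein gene 135.7 kb away, was at 98.3, 6242, 866 and 23158 normalized counts in Cas9 DMSO, HK3-null DMSO, Cas9 ATRA and HK3-null ATRA. Its ATRA rise was smaller in HK3-null cells (1.89 against 3.14, interaction -1.25, limma adjusted p = 0.000137), the opposite sign to TGM2. KIAA1755, at 42 kb, rose with ATRA by 1.5 in Cas9 and 1.37 in HK3-null cells and was higher in HK3-null cells by 3.12 in DMSO and 2.99 in ATRA, with an interaction of -0.13 (adjusted p = 0.861). TTI1 and RPRD1B changed by at most 0.19 in any comparison, with adjusted p of 0.285 or more. Accessible regions assigned to TTI1, BPI and KIAA1755 were higher in HK3-null DMSO (limma adjusted p 0.000135 to 0.000839), and none of them passed for ATRA. In that DMSO comparison 42.7% of tested regions were called higher and 86.6% in either direction, so a higher call is common. The KIAA1755 region chr20:38231480-38232043 had a mean below the signal needed for the test, and its values come from the fit over all regions. A region assigned to no gene, chr20:38191569-38192015, rose by 1.73 with ATRA in HK3-null cells (adjusted p = 0.000886), with 0.12 in Cas9 cells and a DMSO genotype difference of -0.45 (adjusted p = 0.247). The ATRA libraries behind that rise also had a part in the selection of regions.

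Near CD38 no deposited region lay within 250 kb. All deposited regions were selected on the genotype difference in ATRA, so this does not show that chromatin there was closed or unchanged by ATRA. BST1, a gene of the same enzyme family 4.2 kb away, stood at 140, 675, 255 and 1322 normalized counts in the order given above. It was higher in HK3-null cells by 2.26 in DMSO and by 2.37 in ATRA (log2, both called), and rose with ATRA by 0.86 in Cas9 and 0.97 in HK3-null cells, short of 2-fold, with an interaction of 0.11 (adjusted p = 0.675). FBXL5 and FAM200B rose with ATRA by 0.51 to 0.83, and CC2D2A at 4 to 12 counts did not pass for ATRA. In DMSO FBXL5 was higher in HK3-null cells by 0.66 (limma adjusted p = 1.10e-05, under 2-fold) and CC2D2A by 1.05 (adjusted p = 0.0300, called). CC2D2A passed the filter on low values through the HK3-null groups alone, so its call is no support for a difference near CD38. Of all genes 11.5% were called higher in HK3-null DMSO and 12.4% in HK3-null ATRA. FAM200B did not differ in DMSO (0.06, adjusted p = 0.660). In ATRA the genotype differences were 0.51 for FBXL5, 0.95 for CC2D2A and 0.32 for FAM200B, none of them called. The median genotype and ATRA changes of all tested genes on chromosomes 4 and 20 lay between -0.055 and 0.072, so neither chromosome was shifted as a whole.

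**Figure D4:**
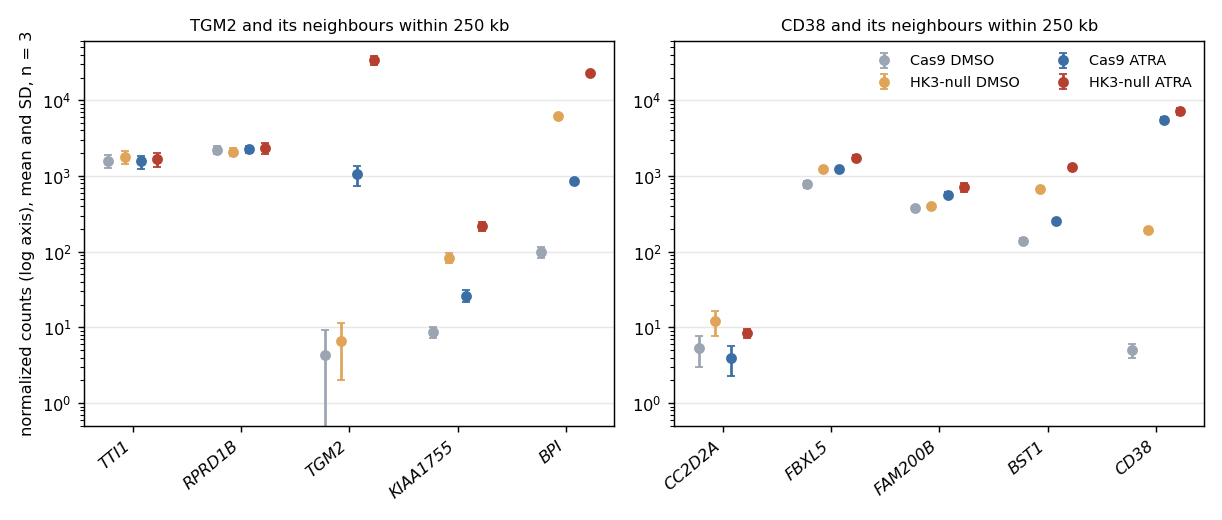
Mean normalized counts (log axis) with bars for the SD of 3 libraries per group, for TGM2 (left), CD38 (right) and their tested neighbours within 250 kb in chromosomal order. The lower bar of TGM2 in Cas9 DMSO runs off the axis because its SD (4.93) exceeds its mean (4.33), and BST1 goes from 140 in Cas9 DMSO to 1322 in HK3-null ATRA.

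Genes known to rise with ATRA mostly rose here. Of 23 listed genes 21 were tested. In Cas9 cells 15 were called higher and 0 lower (7.26% and 3.18% of all genes), and in HK3-null cells 17 and 0 (8.83% and 6.51%), with median log2 changes of 2.53 and 2.31 against 0.00 and 0.01 over all tested genes. HIC1 and PLAAT4 passed the filter on low values through the ATRA groups alone, so their ATRA calls are no support for a rise of the list. The repressor gene HIC1 rose from 4.33 to 3033 in Cas9 and from 7.33 to 5023 normalized counts in HK3-null cells, log2 changes of 9.83 and 9.47. Of its 13 counts in Cas9 DMSO 11 were in replicate 1, without which the mean there was 1 and the rise in Cas9 cells 10.76. ASB2, a ubiquitin ligase subunit gene, rose by 4.23 and 4.93. In DMSO 10 of the 21 were higher in HK3-null cells and 2 lower, against 11.5% and 8.74% of all genes, and in ATRA 10 and 2, against 12.4% and 10.6%.

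The interaction passed for 13 of these 21 genes, 3 with a larger and 10 with a smaller ATRA change in HK3-null cells, against 4.79% and 5.18% of all tested genes. FGR rose by 8.08 in Cas9 and 4.34 in HK3-null cells, ITGAM, which encodes the maturation marker CD11b, by 5.41 and 2.31, ITGAX (CD11c) by 5.03 and 2.09, and ICAM1 by 7.33 and 5.04. Genes of the NADPH oxidase did alike, with CYBB at 4.77 and 2.48 and NCF1 at 6.51 and 4.44. In DMSO each of these was higher in HK3-null cells, by 3.42 (NCF1) to 5.20 (CYBB). PLAAT4, listed under its older symbol RARRES3, rose by 5.14 and 2.99 without a DMSO difference that passed (0.19, adjusted p = 0.728). On the other side stood CSF3R, the receptor gene for G-CSF, with 0.90 and 1.66, an interaction of 0.77 (adjusted p = 0.000212).

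**Figure D5:**
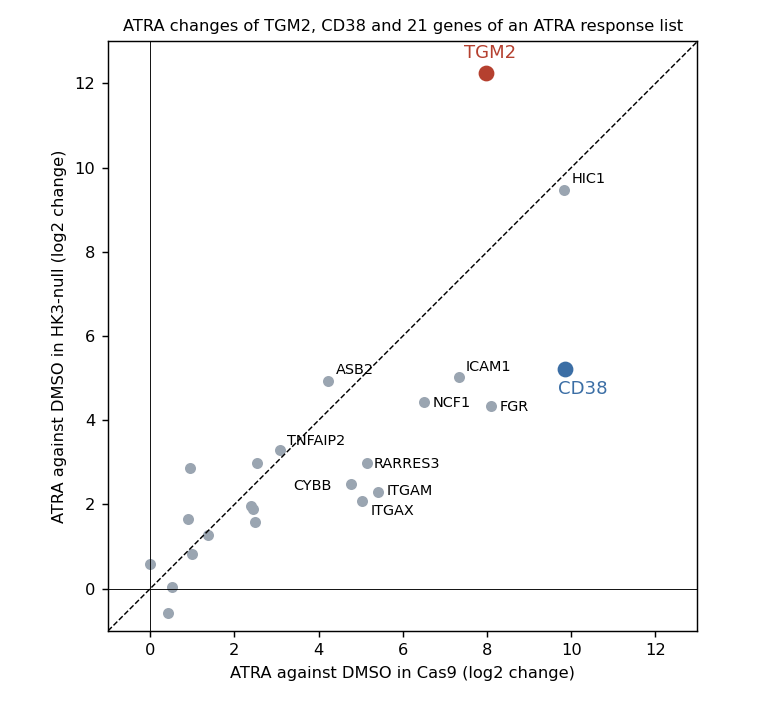
Log2 change with ATRA in Cas9 cells (horizontal) against that in HK3-null cells (vertical) for TGM2, CD38 and the 21 tested genes of the list of genes known to rise with ATRA. The dashed line marks equal changes, with TGM2 above it at 7.98 and 12.26 and CD38 below it at 9.85 and 5.22, on the side of FGR and ITGAM.

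Of the receptors and coregulators, 12 of 13 were tested, with 2 called higher and 1 lower for ATRA in Cas9 cells and 2 and 0 in HK3-null cells, against 7.26% and 3.18% and 8.83% and 6.51% of all genes. RARB, a receptor gene that ATRA itself induces, went from 1, 0 and 0 to 21, 19 and 23 normalized counts in Cas9 cells (63 against 1 in sum, a ratio of 63.0 with a counting interval of 10.9 to 2527). Its 1 count in Cas9 DMSO was in replicate 1, and it passed the filter on low values through the ATRA groups alone. In HK3-null cells it went from 0 in all 3 libraries to 30, 35 and 44, at least 36.3-fold higher against 3 counts over the group. The coactivator gene NCOA3 rose by 2.91 and 2.76, and RXRA fell by 1.04 in Cas9 and 0.81 in HK3-null cells. RARA rose by 0.63 and 0.68 with no genotype difference that passed (-0.05 in DMSO, adjusted p = 0.785; 0.00 in ATRA, adjusted p = 0.996). In DMSO RXRB and NCOA2 were called higher in HK3-null cells and NCOA1 lower, against 11.5% and 8.74% of all genes, and in ATRA NCOA2 was called higher and PML lower, against 12.4% and 10.6%. Without Cas9 DMSO replicate 1 the RXRB difference in DMSO was 0.94, under 2-fold and no longer a call.

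Among 17 genes of retinoid metabolism and binding 8 were tested, with 3 called higher and 1 lower for ATRA in Cas9 cells (7.26% and 3.18% of all genes) and 4 and 1 in HK3-null cells (8.83% and 6.51%). Of these 8, CYP26A1 and CYP26B1 passed the filter on low values through HK3-null ATRA alone and DHRS3 through the ATRA groups alone, so their calls there are no support for a change of the list. DHRS3, which reduces retinal, rose by 9.14 and 8.63, from 2 and 3.67 to 1292 and 1655 normalized counts. Without Cas9 DMSO replicate 1, which held 5 of its 6 counts there, its rise in Cas9 cells was 9.84. CYP26A1, which degrades retinoic acid, was at 0 in all Cas9 DMSO libraries, 0, 1 and 0 in HK3-null DMSO, 4, 3 and 1 in Cas9 ATRA, and 94, 59 and 32 in HK3-null ATRA. Its ATRA ratio was at least 2.67-fold in Cas9 cells and 185 in HK3-null cells (counting interval 32.8 to 7346). CYP26B1 was detected in HK3-null ATRA alone, at 6, 10 and 9 counts, at least 8.33-fold higher than in HK3-null DMSO or Cas9 ATRA. DHRS9 rose by 1.97 and 1.83 with ATRA and was higher in HK3-null cells by 3.78 in DMSO, and FABP5 fell by 1.18 in HK3-null cells. ALDH1A1 fell by 1.88 in Cas9 cells and was lower in HK3-null cells by 3.49 in DMSO (log2 difference -3.49). ALDH1A1 passed the filter on low values through the Cas9 groups alone, so its lower calls between genotypes are no support for a change of the list. In DMSO 2 of the 8 were higher in HK3-null cells and 1 lower (11.5% and 8.74% of all genes), and in ATRA 3 and 1 (12.4% and 10.6%).

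Among the other transglutaminases no interaction was positive and passed, against 4.79% of all tested genes, so none among so few is near that share. Of 8 family members 4 were tested, with 1 called higher and 1 lower for ATRA in Cas9 cells (7.26% and 3.18% of all genes) and 0 and 2 in HK3-null cells (8.83% and 6.51%). Between genotypes 2 were higher and 0 lower in HK3-null cells under either treatment, against 11.5% and 8.74% of all genes in DMSO and 12.4% and 10.6% in ATRA. TGM5, a transglutaminase of the epidermis, rose by 2.34 in Cas9 cells and by 0.67 in HK3-null cells (interaction -1.67, adjusted p = 4.59e-05), from 137 and 679 to 695 and 1077 normalized counts, the sign seen for CD38. F13A1, the catalytic subunit of coagulation factor XIII, fell by 2.04 in HK3-null cells. TGM3 at 22 counts in HK3-null DMSO fell by 1.56 there, and its call in Cas9 cells rests on 4 counts in sum against 0. TGM3 passed the filter on low values through HK3-null DMSO alone. Its fall there and its higher call in HK3-null DMSO are therefore no support for a change of the family. TGM1 was higher in HK3-null ATRA by 1.04.

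Of 12 listed partners and substrates of TGM2, 8 were tested, with 1 called for ATRA in Cas9 cells (the fibronectin receptor subunit gene ITGA5, higher by 1.07) and 0 in HK3-null cells, against 10.4% and 15.3% of all genes. Without Cas9 DMSO replicate 1 the ITGA5 rise in Cas9 cells was 0.91, under 2-fold and no longer a call. Between genotypes 2 were called in DMSO and 2 in ATRA, against 20.3% and 23% of all genes, counts this small being near the background. SDC4, a heparan sulphate proteoglycan gene, was higher in HK3-null cells by 2.86 in DMSO and 3.38 in ATRA, and PLCD1, a phospholipase gene, was lower (log2 differences -2.97 and -2.42). Fibronectin (FN1) stood at 630, 13 and 11 normalized counts in Cas9 DMSO, the 630 being in the replicate with stromal transcripts, so its mean says little about these cells. The median log2 changes of the list were -0.13, 0.17, 0.43 and 0.58 for ATRA in Cas9, ATRA in HK3-null, genotype in DMSO and genotype in ATRA.

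On the CD38 side, genes that make NAD gave 1 call of 9 tested for ATRA in either genotype and between genotypes in either treatment, against 10.4%, 15.3%, 20.3% and 23% of all genes. The interaction passed for 3 of the 9, NAPRT (0.88), QPRT (-0.73) and NADK (0.47), against 9.97% of all genes. NMNAT3, a mitochondrial NAD synthesis gene, fell with ATRA by 1.31 and 1.93, and NAPRT, which starts NAD synthesis from nicotinic acid, was higher in HK3-null cells by 3.66 in DMSO and 4.55 in ATRA. NAMPT, the rate-limiting enzyme of NAD salvage, fell by 0.63 and 0.85 with ATRA, and was not called because both are under 2-fold. Among 14 tested consumers of NAD, PARP9 rose by 1.06 and 1.16 and PARP14 by 2.43 and 2.63, the only calls for ATRA (7.26% and 8.83% of all genes were called higher). Between genotypes in DMSO, BST1, SIRT5 and SIRT4 were called higher and SARM1 and PARP9 lower, and in ATRA BST1 and NT5E higher and SARM1 lower, 5 and 3 calls in all against 20.3% and 23% of all genes. The SIRT4 call did not hold without Cas9 DMSO replicate 1 (limma adjusted p = 0.136), nor did the PARP9 call in DMSO (-0.995, under 2-fold). SIRT4 and NT5E passed the filter on low values through the HK3-null groups alone, so their higher calls are no support for a change of the list. Of the consumers named here, PARP1 was the most abundant. PARP1, with 19962 normalized counts in Cas9 DMSO, was lower in HK3-null cells by under 2-fold (-0.74 in DMSO and -0.93 in ATRA).

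PECAM1, the CD38 ligand, was higher in HK3-null cells by 3.31 in DMSO and 3.09 in ATRA and rose with ATRA by 1.56 and 1.34, from 52.3 and 524 to 155 and 1330 normalized counts. Unlike CD38 it kept the genotype difference in ATRA, with an interaction of -0.21 (adjusted p = 0.545). Of the 7 genes for the ligand and for calcium channels opened by messengers that CD38 makes, 4 were tested, with 1 called higher for ATRA in either genotype, 2 higher in HK3-null DMSO and 3 in HK3-null ATRA, and 0 lower. Of all genes 7.26% and 8.83% were called higher for ATRA in Cas9 and HK3-null cells, 11.5% in HK3-null DMSO and 12.4% in HK3-null ATRA. TPCN1, an endolysosomal channel gene, was higher in HK3-null cells by 1.93 and 2.23, and TRPM2, a channel opened by ADP-ribose, by 0.58 and 1.03.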

How the data were processed

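HL60 cells of 4 groups were measured by RNAseq (12 libraries) and ATACseq (8 libraries). RNAseq reads, paired-end and directional, were placed on GRCh38 by the authors, who deposited log2 values of scaled gene counts. Raised to a power of 2, 100% of values were whole within rounding, with 0 written as the log2 of 0.001. The methods text names RPKM, but no scaling by gene length was visible. The ATACseq reads were aligned with bwa mem and peaks called with MACS2 by the authors, who reduced libraries to the smallest and deposited fragment density per merged region as a signal. Signal depth is unknown. The aligner for RNAseq is not given in the sources used here.

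The values were refitted here as log2(normalized count + 1) with limma 3.58.1 in R 4.3.3 (lmFit, eBayes with a trend), with 1 mean per group, over 13256 genes whose deposited log2 values averaged above 3 in some group. The pseudocount of 1 replaces the value written for 0. A call needed an adjusted p (Benjamini-Hochberg) under 0.05 with at least 2-fold change, interactions and single genes an adjusted p under 0.05. ATACseq was fitted as log2(signal + 1) over 6214 regions. A seeded simulation with known changes tested both fits. The 330 unnamed rows made up no more than 0.00926% of counts. The members and lists were chosen with earlier results of these data known. Named genes are TGM2, CD38, HK3, the 5 most correlated genes of each member with at least 50 mean counts in a group, neighbours within 250 kb, and called list members, up to 6 per comparison by fold. Sequences are from hg38, exons from GENCODE and gene spans from RefSeq. Proteins were not analysed here, and some members of the lists and 1 sequence are not reported here, although the counts over lists include those members. Alternatives were other pseudocounts, filters, quantile normalization, the deposited values, a replicate block and leaving out each replicate.

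The pairing of libraries by replicate number was judged by how their deviations from group means correlated. Over 10667 genes the 18 same-numbered RNAseq pairs correlated at 0.178 to 0.631 and 36 different-numbered pairs at -0.643 to 0.286, so the numbers were taken to pair the RNAseq samples. The main fit has no term for that pairing, which enters only the replicate block among the alternatives. The 12 ATACseq pairs gave -0.209 to 0.054, and there the samples share only a number.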

Additional observations from a re-analysis of the deposited data

Results flagged for a closer look

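The ATRA change differed between HK3-null and Cas9 cells by the limma interaction test (adjusted p under 0.05) for both genes and for a number of genes named beside them. Values are the log2 change in HK3-null minus that in Cas9 cells. TGM2 had 4.28 and CD38 -4.63. Among genes of the ATRA and retinoid lists, larger changes in HK3-null cells were found for CYP26A1 (3.73), CYP26B1 (3.20), CSF3R (0.77) and RDH11 (0.56), where CYP26A1 and CYP26B1 rest on groups at or near 0 counts and passed the filter on low values through HK3-null ATRA alone. Smaller changes were found for FGR (-3.74), ITGAM (-3.10), ITGAX (-2.94), ICAM1 (-2.29), CYBB (-2.29), RARRES3 (-2.15), NCF1 (-2.06), PML (-0.71) and UBA7 (-0.55). In the other lists and among neighbours the values were -1.67 for TGM5, -1.06 for F13A1, 0.88 for NAPRT, -0.73 for QPRT, 0.47 for NADK and -1.25 for BPI. Without Cas9 DMSO replicate 1 the value of TGM2 was 3.56, and those of UBA7 (-0.48, adjusted p = 0.0587) and F13A1 (-1.07, adjusted p = 0.0511) did not pass.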

How the results depend on the processing

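Of the alternative values for TGM2 and CD38 RNA, 189 kept direction and side of the adjusted p threshold. In 4, all of the CD38 genotype difference in ATRA, which is under 2-fold and no call, the adjusted p rose above 0.05, and in 1 it fell below. The rises of both genes with ATRA and both interactions passed under every alternative run, that of TGM2 ranging from 3.56 (without Cas9 DMSO replicate 1) to 4.79 as single libraries were left out. The TGM2 genotype difference in DMSO ranged from 0.26 to 1.49 as single libraries were left out, the latter (adjusted p = 0.00601) without Cas9 DMSO replicate 1. The CD38 genotype difference in ATRA ranged from 0.30 to 0.46 and was 0.29 after quantile normalization (adjusted p = 0.300). For the region at the TGM2 start, the ATRA difference in Cas9 cells was 1.00 after quantile normalization (adjusted p = 0.0220), and the genotype difference in DMSO ranged from 0.45 to 1.26. The intron 6 genotype difference in DMSO was -0.052 after quantile normalization and ranged from -0.36 to 0.58, that of intron 10 from -1.22 to 0.70, and the intron 10 ATRA difference in Cas9 cells from -0.32 to 1.6. The causes were not tested. The replicate block, under which the TGM2 interaction was 4.28 (adjusted p = 0.000250) and that of CD38 -4.63, changed no call of TGM2, CD38 or their regions.

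With an unadjusted p under 0.05 and at least 1.5-fold, 2929 and 3963 genes were called for ATRA in Cas9 and HK3-null cells and 4617 and 5225 between genotypes in DMSO and ATRA, against 1384, 2034, 2688 and 3044. Short lists moved by few genes. Under that looser rule the receptor list gave 5, 6 and 6 calls for ATRA in Cas9, ATRA in HK3-null and genotype in ATRA, NAD synthesis 3, 5, 3 and 2 over the 4 comparisons, NAD consumption 4, 4 and 6 (not genotype in DMSO), the CD38 ligand list 2 and 2 for ATRA, and transglutaminases 4 for genotype in DMSO. For transglutaminases 1 call was left for ATRA in Cas9 cells and genotype in ATRA with a pseudocount of 5, for genotype in ATRA after quantile normalization and for ATRA in HK3-null cells on the deposited log2 values, and 4 for genotype in ATRA with the chromosome median subtracted. The latter gave 1 and 0 for receptors and 2 for NAD synthesis in DMSO. Quantile normalization gave 2 for NAD synthesis and 1 for NAD consumption for ATRA in Cas9 cells and 3 for NAD consumption between genotypes in DMSO. TGM2 partners gave 2 for ATRA in Cas9 cells under the block and 1 in HK3-null cells when only those groups were fitted. Leaving out 1 library moved partners to between 0 and 2 (Cas9 cells, any of Cas9 ATRA replicates 2 and 3 and the Cas9 DMSO replicates), to between 0 and 1 for ATRA in HK3-null cells and to between 2 and 4 between genotypes in DMSO (both Cas9 DMSO replicate 1). It moved transglutaminases to between 1 and 2 (Cas9 DMSO replicate 3 for ATRA; Cas9 ATRA replicate 1 or HK3-null ATRA replicate 2 or 3 for genotype in ATRA), and NAD synthesis to between 1 and 2 (Cas9 ATRA or DMSO replicate 2 for ATRA; Cas9 DMSO replicate 1 or HK3-null DMSO replicate 2 or 3 for genotype). NAD consumption fell to 1 (Cas9 ATRA replicate 3 or Cas9 DMSO replicate 2) and, between genotypes in DMSO, to 3 (HK3-null DMSO replicate 3). Receptors fell to 1 between genotypes in ATRA (Cas9 ATRA replicate 3), and the CD38 ligand list rose to 2 for ATRA in HK3-null cells (HK3-null ATRA replicate 2). Counts this low in DMSO limit what can be said of TGM2 there.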
